A study of Mus musculus with 6 samples.

Results

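Genes of fat cells and of fat storage were examined in the skin of newborn mice with an always active form of the transcription factor Nrf2 in their keratinocytes. The set held 34 genes, chosen for their known roles, and was read from array probe sets that name a single gene; where a gene had several, the brightest over the 6 arrays was used. A value was obtained for 30 of the 34 among 18193 genes tested in all, and 4 are not analysed here. Total RNA came from whole back skin of female mice at postnatal day 2.5, all littermates of mixed FVB/N and C57BL/6 background, with 1 array per animal. The caNrf2 group (K5cre-caNrf2, tg/tg, 3 animals) combines the active Nrf2 with a Cre recombinase under the keratin 5 promoter, which acts in basal keratinocytes and the cells that derive from them, sebaceous gland cells included, and not in fat cells. The control group (K5cre-wt, tg/wt, 3 animals) is read here as carrying the Cre without the active Nrf2. The sample descriptions call both groups "weak" without further explanation. Values are log2 intensities, and since probe sets bind their targets with unequal strength, no gene's level is set against that of another gene.

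White adipocytes store fuel as triglyceride in a large lipid droplet. They take up fatty acids released by lipoprotein lipase, or make them from glucose, join them to a glycerol backbone, coat the droplet with perilipins and CIDE proteins, and release the fat again through lipases when hormones call for it. The receptor PPAR gamma and the factor C/EBP alpha drive this programme. In mouse skin a layer of such cells forms beneath the dermis around birth, and brown adipocytes, which burn fat for heat through the uncoupling protein Ucp1, lie below the skin of the upper back. Sebaceous gland cells, muscle and endothelium use some of the same genes, so in whole skin a value sums over cell types, and fewer cells of a type cannot be told apart from less RNA per cell.

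The promoters of the 4 genes with the smallest unadjusted p among the 30 are shown as a choice by rank alone. They are the 250 bases before the transcription start, read along the gene's strand, from RefSeq on build GRCm38.p6; promoters were found for 23 of the 30 genes. Capitals mark matches, on either strand, to 5 motifs. TGACNNNGC is the core of the antioxidant response element, which Nrf2 binds with small Maf proteins. AGGTCA is the unit that many nuclear receptors bind, and a direct repeat of it with 1 base between the copies is the site of PPAR with its partner RXR. TTGCNNAA stands for C/EBP, and ACGTCA is a unit of the cAMP response element. The motifs were chosen with the array values known, and ACGTCA was added after the Pck1 window had been read, so its match there is not independent.

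Pck1, chr2:173152823-173153072, plus strand: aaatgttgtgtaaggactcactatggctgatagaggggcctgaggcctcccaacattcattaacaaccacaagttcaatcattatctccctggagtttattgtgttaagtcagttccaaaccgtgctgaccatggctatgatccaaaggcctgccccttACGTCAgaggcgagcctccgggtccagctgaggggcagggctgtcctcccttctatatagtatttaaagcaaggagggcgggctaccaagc
Plin2, chr4:86670060-86670309, minus strand: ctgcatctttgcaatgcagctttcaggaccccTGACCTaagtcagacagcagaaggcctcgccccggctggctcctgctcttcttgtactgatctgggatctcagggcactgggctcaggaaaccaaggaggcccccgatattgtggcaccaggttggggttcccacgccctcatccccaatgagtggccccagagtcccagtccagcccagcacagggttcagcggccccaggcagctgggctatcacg
Ucp1, chr8:83290098-83290347, plus strand: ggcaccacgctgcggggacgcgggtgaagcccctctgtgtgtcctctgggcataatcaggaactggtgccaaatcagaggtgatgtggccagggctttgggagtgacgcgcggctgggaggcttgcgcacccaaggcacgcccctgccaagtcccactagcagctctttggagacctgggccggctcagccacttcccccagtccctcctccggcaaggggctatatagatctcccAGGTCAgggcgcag
Cebpa, chr7:35119043-35119292, plus strand: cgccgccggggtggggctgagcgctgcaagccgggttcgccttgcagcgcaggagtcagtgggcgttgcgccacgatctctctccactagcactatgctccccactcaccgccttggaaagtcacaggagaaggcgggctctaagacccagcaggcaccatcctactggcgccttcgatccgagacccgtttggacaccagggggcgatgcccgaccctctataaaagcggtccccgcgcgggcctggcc

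The Pck1 window holds the cAMP unit between positions -91 and -86 from the start, the Plin2 window the nuclear receptor unit between -218 and -213, where it overlaps no other match, and the Ucp1 window the same unit between -14 and -9. None of these 4 windows holds the antioxidant response element core. Over the 28 windows of the 23 genes that core was found in 1, at Pparg, and it lies in 10.2% of all 32851 promoter windows of this length. The full PPAR repeat was in none of the 28 windows and in 0.0335% of all windows, and its single unit in 8 of the 28 and in 14.0% of all. C/EBP letters were in 3 of the 28 and in 9.56% of all windows, and the cAMP unit in 3 of the 28 and in 6.47% of all. These are matches of letters in a short window and show neither binding nor its absence.

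No gene of the set passed the test between caNrf2 and control skin, and most intervals were narrow. Of the 30 genes, 0 passed the threshold (limma, Benjamini-Hochberg adjusted p under 0.05 over all genes), against 0.374% of all genes. Before adjustment, p was under 0.05 for 2 of them, Pck1 and Plin2, both lower in caNrf2 skin, and for 8.09% of all genes. The same 2 were the only genes of the set whose groups did not overlap, against 13.1% of all genes in either direction and 6.88% in the lower direction. Of the 30 differences 23 lay below 0, with a median of -0.07 on the log2 scale. Over all genes 52.8% lay below 0 and the median was -0.01. The 95% interval of the difference stayed within 1.5-fold in both directions for 27 of the 30 genes, and for 98.4% of all genes. The 3 exceptions were Pck1, Ucp1 and Lep.

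**Figure D1:**
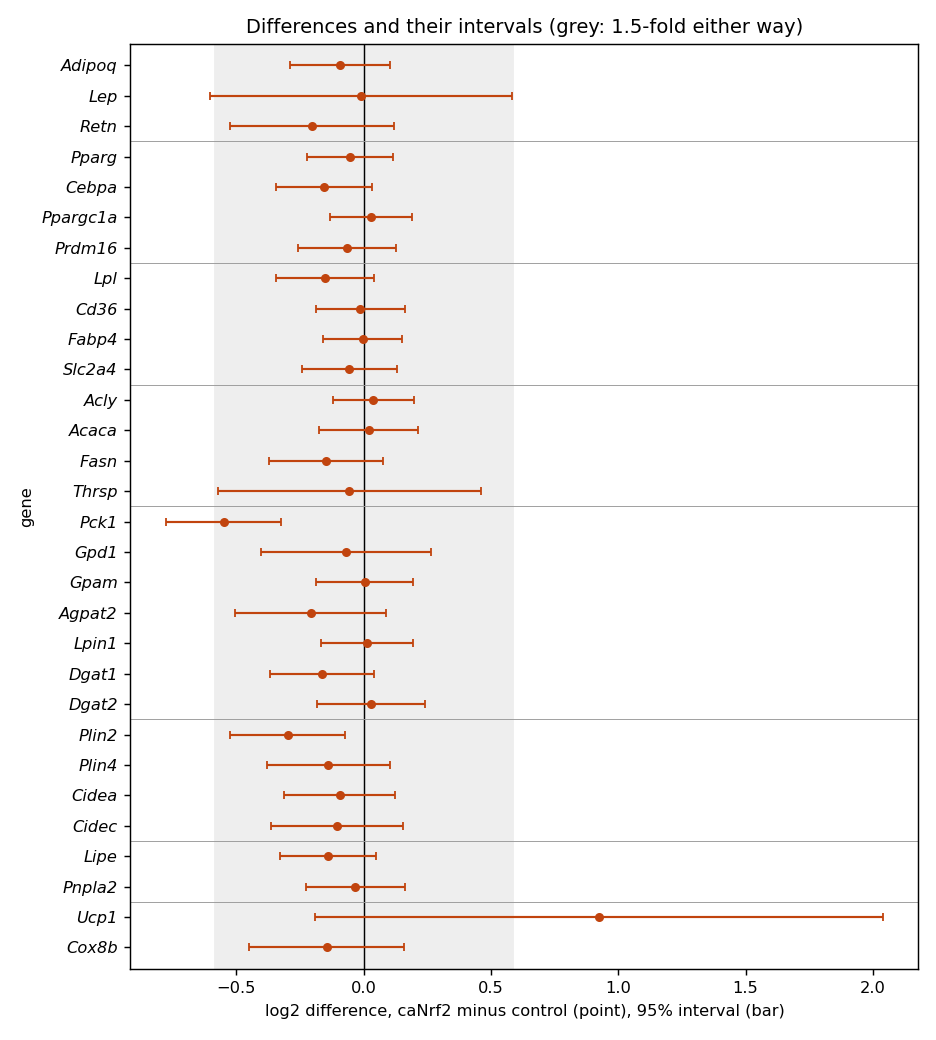
Log2 difference, caNrf2 minus control, for each of the 30 genes in order of role (points, with bars for the 95% interval from limma, 3 animals per group); the grey band is 1.5-fold in either direction. The interval of Pck1, from -0.78 to -0.32, lies wholly below 0, as does that of Plin2, from -0.52 to -0.07, and the interval of Ucp1 is the widest, from -0.19 to 2.04.

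Among secreted products of fat cells, 3 genes were measured and none passed the threshold. Adipoq encodes adiponectin, a hormone made by fat cells alone. It read 12.92, 12.71 and 12.83 on control arrays 1 to 3 and 12.68, 12.87 and 12.63 on caNrf2 arrays 1 to 3 (log2 intensity). The groups overlapped, and the difference was -0.09 ± 0.09 (SE; adjusted p = 0.847). Retn encodes resistin, another adipokine of mouse fat. Its values were 11.41, 10.78 and 11.36 in control and 10.93, 11.07 and 10.94 in caNrf2 skin. Control 2 lay below every caNrf2 animal while the other controls lay above them, and the difference was -0.20 ± 0.15 (adjusted p = 0.777). It was -0.41 without control 2 and -0.09 without control 1. Lep encodes leptin, which reports the size of the fat store to the brain. It read 6.14, 4.99 and 5.04 in control and 5.17, 5.24 and 5.73 in caNrf2 skin. Control 1 and caNrf2 3 stood above the other animals, so the spread within each group was larger than the difference of -0.01 ± 0.27 (adjusted p = 0.998).

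None of the 4 regulators of the fat cell programme passed the threshold. Pparg, the master regulator of fat cell formation, read 8.59, 8.48 and 8.63 in control and 8.45, 8.60 and 8.49 in caNrf2 skin, a difference of -0.05 ± 0.08 (adjusted p = 0.905). Its partner Cebpa read 11.35, 11.22 and 11.25 in control and 11.00, 11.26 and 11.08 in caNrf2 skin. Only caNrf2 2 reached the control range, and the difference of -0.15 ± 0.09 did not pass (adjusted p = 0.693). Ppargc1a encodes a coactivator that promotes mitochondria and brown fat genes, and Prdm16 a factor that holds cells in the brown state. Ppargc1a lay between 6.28 and 6.43 on all arrays and differed by 0.03 ± 0.07 on its brightest probe set. The other 4 Ppargc1a probe sets, dimmer with means of 4.45 to 5.57, went the other way, by -0.14 to -0.36. None passed in a limma fit of all probe sets. The largest of these, -0.36 ± 0.08, had an unadjusted p of 0.00064 there (adjusted p = 0.139). Prdm16 lay between 5.55 and 5.86 and differed by -0.07 ± 0.09 on its brightest probe set. Its other probe sets, with means of 5.48, 5.42 and 4.48, differed by 0.16, 0.09 and -0.11.

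None of the 4 uptake genes passed the threshold. Fabp4, the fatty acid carrier of fat cells, lay between 13.46 and 13.58 on the 6 arrays, and caNrf2 skin held 99.7% of the control level (95% interval 89.5 to 111%). Cd36, a fatty acid translocase also present on endothelium and macrophages, lay between 11.53 and 11.76, at 99.1% of control (87.9 to 112%). Their differences were -0.0045 ± 0.07 for Fabp4 and -0.01 ± 0.08 for Cd36. Lpl, the lipase that frees fatty acids from circulating lipoproteins, read 12.89, 12.79 and 13.00 in control and 12.86, 12.62 and 12.74 in caNrf2 skin. It differed by -0.15 ± 0.09 (adjusted p = 0.708), and its second probe set differed by the same amount. Slc2a4, the insulin-responsive glucose transporter shared with muscle, differed by -0.06 ± 0.08 with values from 7.59 to 7.83. A second Slc2a4 probe set of similar brightness differed by 0.03 ± 0.08.

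The enzymes that make fatty acids split evenly in direction. Acly, which supplies cytosolic acetyl-CoA, differed by 0.04 ± 0.07 and Acaca, the acetyl-CoA carboxylase that commits it to synthesis, by 0.02 ± 0.09. Fasn, the fatty acid synthase, read 11.07, 10.76 and 11.10 in control and 10.78, 10.94 and 10.76 in caNrf2 skin, a difference of -0.15 ± 0.10 (adjusted p = 0.758). Thrsp, a protein that promotes lipid synthesis and responds to feeding and thyroid hormone, was the most variable of these 4. It read 8.45, 7.66 and 7.69 in control and 7.51, 7.78 and 8.35 in caNrf2 skin. The high animals were again control 1 and caNrf2 3, as for Lep, and the difference was -0.06 ± 0.23 (adjusted p = 0.979).

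Among 7 genes that build glycerol phosphate and triglyceride, Pck1 had the largest difference. Pck1 encodes cytosolic phosphoenolpyruvate carboxykinase, which in fat cells makes the glycerol backbone from smaller carbon units rather than from glucose. It read 9.03, 8.70 and 9.08 on control arrays 1 to 3 and 8.43, 8.41 and 8.32 on caNrf2 arrays 1 to 3. Every caNrf2 animal lay below every control, and control 2 was the nearest to them. The difference was -0.55 ± 0.10, which is 68.3% of the control level (95% interval 58.4 to 80.0%), and narrowly missed the threshold (adjusted p = 0.0666). This call depended on the setting: adjusted p = 0.0158 without control 2, 0.0289 with an intensity trend and 0.0387 after a filter on dim genes, and it reached 0.317 without control 1. A second Pck1 probe set differed by -0.51 ± 0.13 and the third, at a dim level near 2.94, by -0.12 ± 0.08.

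The other 6 genes of this step had an adjusted p of 0.705 or more. Agpat2, which adds the second fatty acid to the backbone, read 9.89, 9.34 and 9.58 in control and 9.20, 9.48 and 9.50 in caNrf2 skin, a difference of -0.21 ± 0.13 (adjusted p = 0.743). It was -0.34 without control 2 and -0.06 without control 1. Gpd1, which makes glycerol phosphate from a glycolytic intermediate, ranged from 9.45 to 10.11 in control skin alone and differed by -0.07 ± 0.15. Dgat1, one of the enzymes that complete triglyceride, read 9.64, 9.53 and 9.69 in control and 9.32, 9.64 and 9.42 in caNrf2 skin, a difference of -0.16 ± 0.09 (adjusted p = 0.705). Dgat2, an unrelated enzyme with the same reaction, differed by 0.03 ± 0.10. Gpam, which attaches the first fatty acid, differed by 0.00 ± 0.09, and Lpin1, a phosphatidate phosphatase, by 0.01 ± 0.08.

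The 4 droplet coat genes had differences below 0, with a median of -0.12, and none passed the threshold. Plin2, a perilipin found on droplets of many cell types and not only of fat cells, read 11.29, 11.21 and 11.22 in control and 10.92, 11.16 and 10.74 in caNrf2 skin. The controls lay within a narrow range and each caNrf2 animal was below it, caNrf2 2 only just. The difference was -0.30 ± 0.10, or 81.4% of control (95% interval 69.6 to 95.2%; adjusted p = 0.461). Plin4 differed by -0.14 ± 0.11. Cidec and Cidea, which fuse droplets in white and brown fat and, for Cidea, in sebaceous glands too, differed by -0.10 ± 0.12 and -0.09 ± 0.10. Cidea read 9.43 and Cidec 9.23 on array caNrf2 3, their lowest values, while caNrf2 2 held their highest, 9.80 and 9.72.

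Sebaceous cells also hold Plin2, and their markers were read on the same arrays. Of 7 listed markers 4 were measured, 1 fell, and their summed intensity was 8352 to 8655 in control and 7387 to 8477 in caNrf2 skin, lowest on caNrf2 3. Krt79, with values from 12.75 to 12.95, makes up most of that sum. The fallen gene was the desaturase Scd3 (-0.81 ± 0.13, adjusted p = 0.0294). Scd3 read 8.27, 8.02 and 7.92 in control and 7.36, 7.45 and 6.98 in caNrf2 skin. The other markers measured overlapped between the groups, with differences of -0.07 ± 0.07 for Krt79, -0.17 ± 0.13 for Far2 and 0.01 ± 0.07 for Mc5r. The part of sebaceous cells in the Plin2 values was not tested.

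Neither of the 2 lipolysis genes passed the threshold. Lipe, the hormone-sensitive lipase, read 9.61, 9.52 and 9.68 in control and 9.38, 9.61 and 9.40 in caNrf2 skin, a difference of -0.14 ± 0.08 (adjusted p = 0.725). Pnpla2, the lipase that takes the first fatty acid off triglyceride, differed by -0.03 ± 0.09 with values from 9.62 to 9.87. A second Pnpla2 probe set, far dimmer at a mean of 4.37, differed by -0.24 ± 0.09 and did not pass.

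Ucp1, the uncoupling protein of brown fat, had the largest difference of the set and rested on 1 animal. It read 4.67, 4.55 and 4.28 in control skin and 4.54, 4.74 and 6.99 in caNrf2 skin. On the linear scale array caNrf2 3 read 127 intensity units, and the other 5 arrays 19.5 to 26.8. The difference of 0.92 ± 0.50 did not pass (adjusted p = 0.690), and without caNrf2 3 it was 0.14 (adjusted p = 0.927; from 0.191 to 0.954 over the alternatives). Other genes of brown fat were mixed on that array. Cox7a1, a cytochrome oxidase subunit, and Fabp3, a fatty acid carrier, both shared with muscle and picked out after their values were seen, had their highest values there. Among the other thermogenic genes listed, Dio2 was highest there by little, at 6.98 against 6.97 on control 1, and lowest on caNrf2 1 at 6.65. Elovl3 was lowest on caNrf2 3, and Lhx8 and Otop1 lay within the control range there. Cox7a1 read 7.99 on caNrf2 3 and 7.34 to 7.63 on the other arrays, and Fabp3 read 10.01 on both caNrf2 3 and caNrf2 2. Cox8b, a cytochrome oxidase subunit of brown fat and muscle, read 9.69, 9.59 and 9.80 in control and 9.19, 9.72 and 9.74 in caNrf2 skin, so that its low animal was caNrf2 1 and caNrf2 3 lay inside the control range (difference -0.15 ± 0.14, adjusted p = 0.847). Ppargc1a at 6.34 and Prdm16 at 5.71 were also within the control range on caNrf2 3, and Cidea, as given above, was at its lowest. Cox8b, Cox7a1 and Fabp3, all shared with muscle, were lowest on caNrf2 1. So were 7 of the 9 skeletal muscle markers, whose summed intensity was lowest there at 36776 and highest on caNrf2 3 at 41725. This was not particular to muscle. Also lowest on caNrf2 1 were 4 of 5 macrophage, 3 of 5 dermal fibroblast, 2 of 6 endothelial, 1 of 4 keratinocyte and 0 of 4 sebaceous markers. Summed fibroblast and keratinocyte intensities were highest on caNrf2 3 too, at 45707 and 63430. Within its group, caNrf2 1 was lowest for 40.6% of all genes. The part of muscle or of brown fat in these values was not tested.

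**Figure D2:**
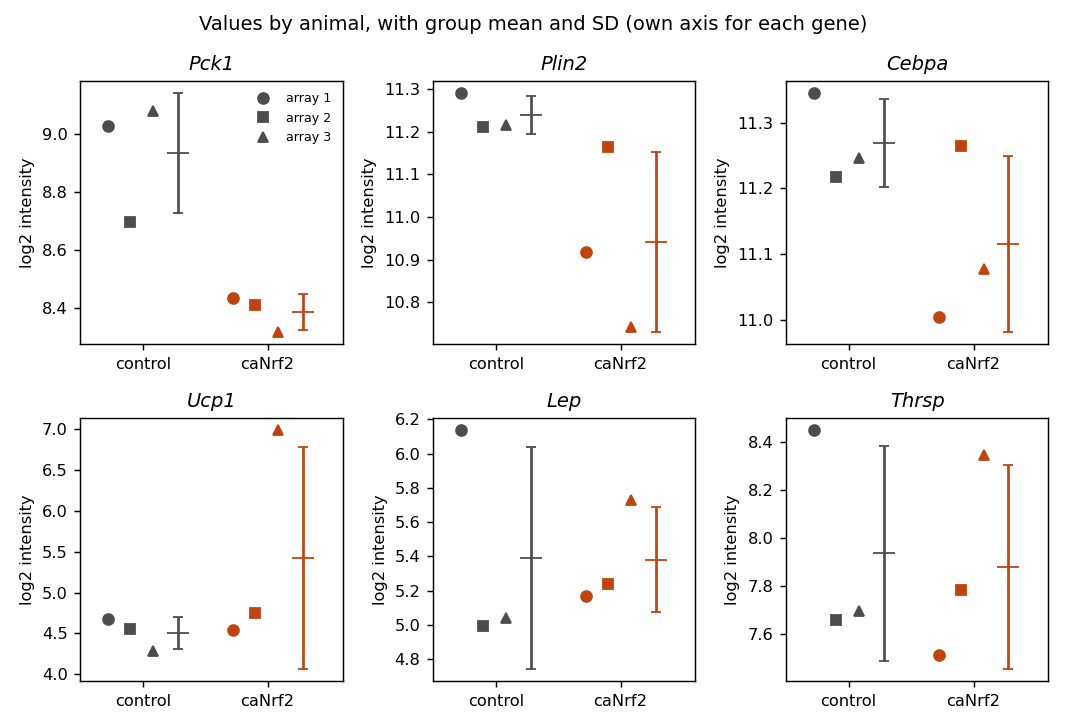
Log2 intensity of 6 genes by animal (grey control, orange caNrf2), with the group mean and SD beside the points and a separate axis for each gene. Circle, square and triangle are arrays 1, 2 and 3 of a group, and the labels do not say that equal numbers pair animals. Pck1 and Plin2 separate the groups, Ucp1 is high on caNrf2 3 alone at 6.99, and Lep and Thrsp are high on control 1 and caNrf2 3.

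The set varied between animals of 1 group together. Within the control group, control 2 had the lowest value for 23 of the 30 genes, 76.7%, whereas it was lowest for 31.8% of all genes. Relative to the control mean, the median of the 30 genes was 0.07, -0.09 and 0.03 on control arrays 1 to 3 and -0.15, 0.01 and -0.09 on caNrf2 arrays 1 to 3, while the median of all genes stayed between -0.02 and 0.01 on every array. Animal caNrf2 1 was lowest in its group for 16 of the 30, and for 40.6% of all genes. Control 2 was thus as low as caNrf2 3, and caNrf2 2 lay within the control range. The median difference of the set was -0.15 without control 2 and -0.02 without caNrf2 1, against -0.07 with every array. With 1 array left out, the differences of 28 of the 30 moved by over 1.5 times or turned sign in at least 1 case. Those of Pck1 and Plin2 did so in none, but Plin2 came to the edge of that limit. The same share over all genes was not computed. A difference near 0, such as 0.0033 for Gpam, crosses such a limit easily. Pck1 and Plin2 also had the smallest p of the 30 in the same values. The Plin2 difference was -0.1985 without caNrf2 3 and -0.4087 without caNrf2 2, against -0.2977 with every array. That of Pck1 lay between -0.67 and -0.48.

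Several genes were high on control 1, and they are named here after their values were seen. Lep, Thrsp, Gpd1 and Agpat2 read 0.75, 0.52, 0.33 and 0.29 above the control mean there. Of the 30 genes, 10 had their highest value of all 6 arrays on control 1 and 11 on control 3, a share not computed over all genes. Within the control group, control 1 was highest for 15 of the 30, against 34.2% of all genes. Control 3 was highest there for 13, against 31.1% of all genes. G0s2, an inhibitor of Pnpla2 outside the set, read 9.78, 9.12 and 9.46 in control and 8.84, 9.16 and 9.51 in caNrf2 skin. Adipoq had the same order of controls in smaller steps, 0.10, -0.11 and 0.01 from the control mean.

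**Figure D3:**
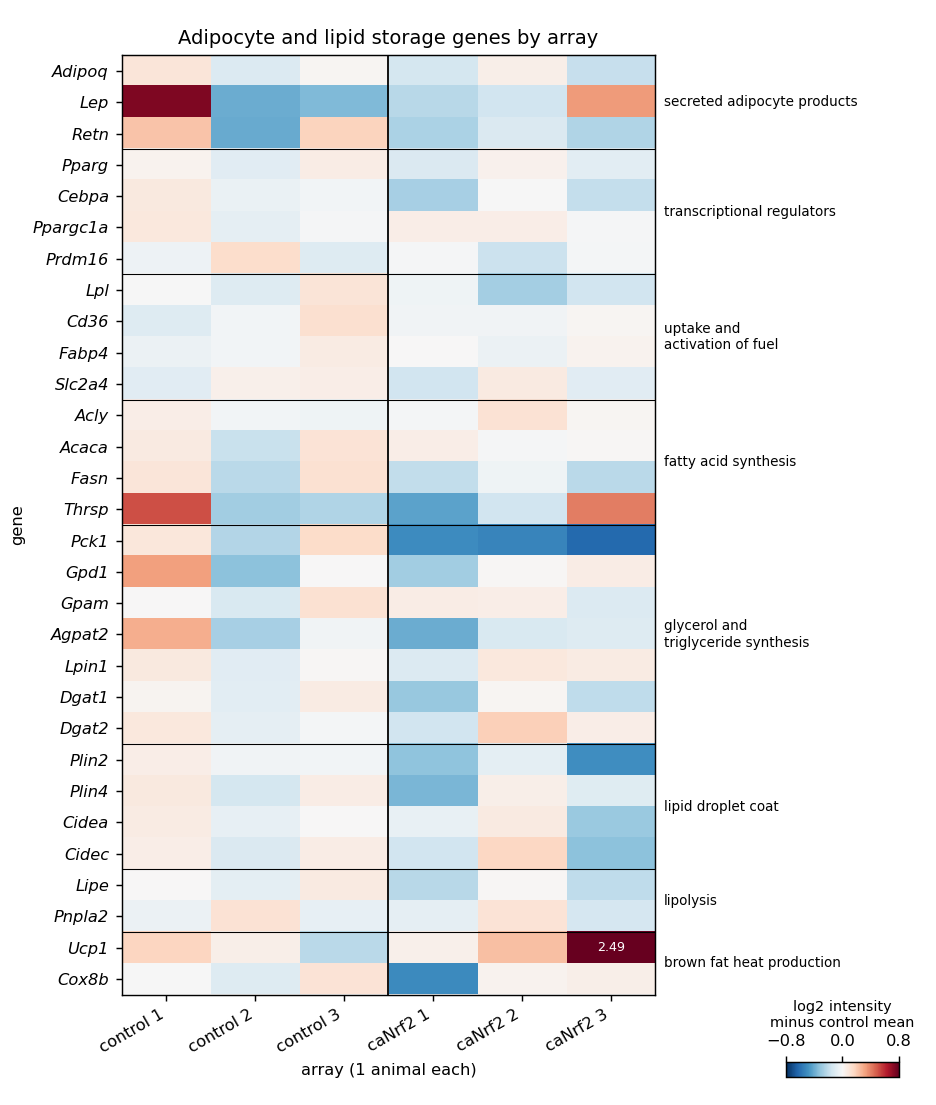
Log2 intensity minus the control mean for the 30 genes (rows, grouped by role) on each array (columns, control left of the line, caNrf2 right; blue lower, red higher, colours saturate at 0.8). Pck1 is blue on all 3 caNrf2 arrays, control 2 is mostly blue among the controls, and the one value beyond the scale is Ucp1 on caNrf2 3, at 2.49.

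Other genes of fat storage, a list of 66 of which 63 were measured, held 2 genes that rose and 0 that fell, with a median difference of -0.02. Over all 18193 genes 63 rose and 5 fell, 0.374% together. Me1, the malic enzyme that supplies NADPH for fatty acid synthesis and is also a target of Nrf2, read 10.19, 10.18 and 10.25 in control and 10.80, 10.87 and 10.83 in caNrf2 skin. It rose 1.54-fold (0.63 ± 0.07, adjusted p = 0.00197), with every caNrf2 animal far above the controls and a second probe set that differed by 0.69. Nampt makes a precursor of NAD and is also released by fat cells as an adipokine. It read 8.39, 8.42 and 8.42 in control and 8.80, 8.76 and 8.89 in caNrf2 skin and rose 1.32-fold (0.40 ± 0.07, adjusted p = 0.0459). The Nampt call was lost whichever single array was left out, with adjusted p from 0.0616 to 0.284.

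By role, 1 of 8 genes of fatty acid synthesis and desaturation rose, Me1, and the next by p was Acss2, an acetyl-CoA synthetase, at 0.24 ± 0.10 (adjusted p = 0.609). Of 5 adipokines and their receptors 1 rose, Nampt, followed by Rbp4, a retinol carrier, at -0.18 ± 0.11 (adjusted p = 0.711). In every other role none passed. Among 13 adipogenic regulators the smallest p belonged to Mlxipl, the glucose-sensing factor ChREBP, at -0.20 ± 0.10, and to Zic1, a marker of brown fat lineage, at 0.16 ± 0.08. Among 8 genes of triglyceride synthesis they were Mogat1 at -0.22 ± 0.09 and Agpat3 at 0.15 ± 0.08, both without overlap of the groups. Mogat1 was dim, with values from 3.66 to 4.11. Over the 63 genes, 3 were lower and 4 higher without overlap. The share of all genes without overlap was 13.1% in either direction.

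Among 9 droplet proteins Hilpda, a droplet protein induced by low oxygen that restrains lipolysis, differed by -0.23 ± 0.08 (adjusted p = 0.472). It read 7.55, 7.67 and 7.68 in control and 7.29, 7.51 and 7.39 in caNrf2 skin, without overlap, and Fitm1 was next at -0.11 ± 0.10. Of 4 lipolysis genes Mgll, which splits the last fatty acid off, differed by -0.16 ± 0.09 and G0s2 by -0.28 ± 0.18. Of 10 genes of uptake, transport and insulin response Slc27a1 differed by -0.17 ± 0.09 and Lmf1 by 0.18 ± 0.10. Of 6 thermogenic genes Elovl3, an elongase of brown fat and of sebaceous glands, differed by -0.37 ± 0.12 (adjusted p = 0.442) and Lhx8 by -0.12 ± 0.09. Elovl3 was lowest on caNrf2 3 at 9.08, the array on which Ucp1 was highest.

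**Figure D4:**
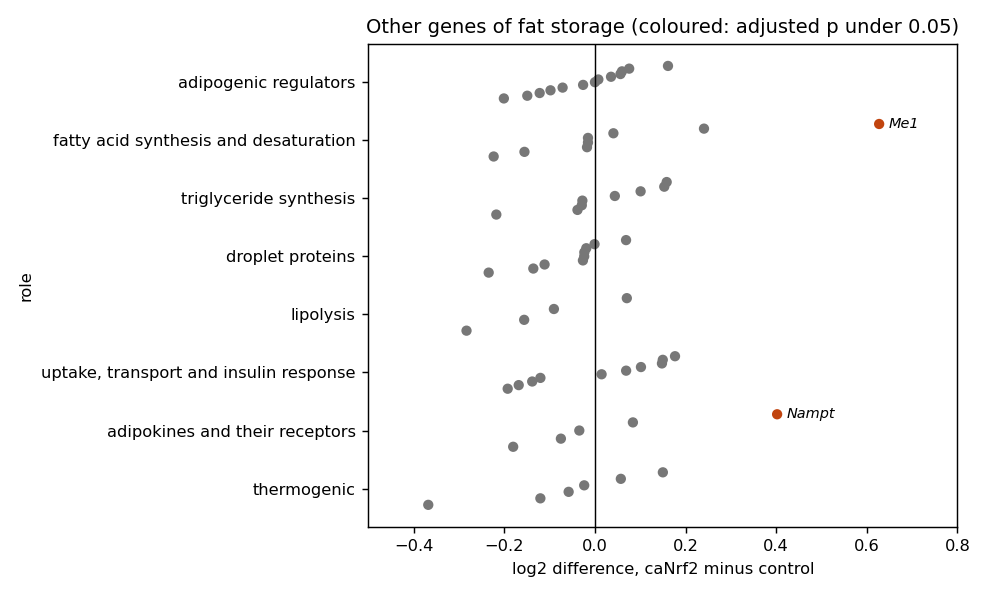
Log2 difference, caNrf2 minus control, of the 63 other genes of fat storage by role (1 point per gene; orange, adjusted p under 0.05 in limma). Me1 at 0.63 and Nampt at 0.40 are the only orange points, and the others lie between -0.37 and 0.24.

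The labels and the tissue were checked on the same arrays. Nqo1, a standard target of Nrf2, rose by 3.61 ± 0.13 (adjusted p = 2.7e-07), and Nfe2l2, which encodes Nrf2, differed by 0.41 ± 0.07 (adjusted p = 0.0539). Adipocyte transcripts were present on every array, with Adipoq at 12.63 or more and Fabp4 at 13.46 or more, while 3 Y-linked genes, which female cells lack, read 2.94 to 3.95. Apart from the sebaceous marker Scd3, no marker of another cell type passed the threshold. None of 9 skeletal muscle, 6 endothelial, 5 macrophage, 5 dermal fibroblast or 4 keratinocyte markers passed, and the members with the smallest p in these lists were Myh2 (-0.17 ± 0.12), Cdh5 (-0.17 ± 0.08), Lyz2 (-0.11 ± 0.12), Pdgfra (-0.12 ± 0.09) and Krt14 (0.03 ± 0.07). Summed muscle intensity was 38580 to 40651 in control and 36776 to 41725 in caNrf2 skin. Array medians lay between 80.7 and 81.9 intensity units. With 3 arrays per group, precision is limited.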

How the data were processed

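The authors deposited linear intensities, a value for each probe set on each array, made with RMA per the submitters' processing notes, which includes background correction, quantile normalisation and summarising of probes. Neither a version nor the software is named in the sources used here. RMA equalises arrays and can hide a shift common to most genes. Here the intensities were taken to log2. Of 45101 probe sets, 64 controls were left out, 34945 had 1 symbol in the platform annotation, and the brightest set per gene was used (18193 genes). The comparison used limma 3.58.1 under R 4.3.3 (eBayes, no block, Benjamini-Hochberg over all genes, threshold 0.05). The fit was also tested on simulated data. Every measured gene of the set is named. So are the 2 of smallest p per role of the other pathway genes, 1 per marker list and all measured sebaceous markers. G0s2 on single arrays, Cox7a1, Fabp3, Dio2 and Otop1 were chosen after their values were seen. The genes and lists were chosen with earlier results of these data known. Replicates were separate animals; no batch is labelled. Alternatives were to leave out each array, to weight arrays, to use robust eBayes or an intensity trend, to average all probe sets of a gene, to keep genes with a mean log2 of at least 6, to centre arrays or quantile normalise them again, and to add a replicate block.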

Additional observations from a re-analysis of the deposited data

How the results depend on the processing

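Of the 30 genes of the set, 15 kept their sign under every alternative that was run, Pck1, Plin2 and Ucp1 among them. The intensity trend, robust eBayes, the filter and the replicate block leave the difference as it was, so they could not turn a sign. Nor could the mean of all probe sets where a gene had a single one, as for Plin2 and Ucp1. The other 15 genes of the set had differences of at most 0.15 in size. They changed sign in 40 values, out of 417 values over all 30 genes. The count of genes of the set past the threshold was 0, and 1 (Pck1) with an intensity trend, with the filter on low values and without control 2 (0 to 1 over single arrays left out). Only the filter left out genes (those under a mean log2 of 6), so Ucp1, Lep and Prdm16 have no value there. Of 17 genes of the set with several probe sets, 10 had probe sets of opposite sign. The largest probe set difference among these 10 was 0.36 in size.

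Some signs turned with the processing. After a further quantile normalisation the log2 differences were -0.0060 for Acaca, -0.0062 for Dgat2, -0.0260 for Gpam, 0.0621 for Lep and -0.0093 for Lpin1. With array weights they were 0.0044 for Fabp4, -0.0473 for Gpam, 0.1684 for Lep and 0.1656 for Thrsp. With the mean of all probe sets they were -0.0179 for Gpam, -0.0143 for Lpin1, -0.1779 for Ppargc1a and 0.0186 for Prdm16, and with median centring -0.0040 for Gpam. Leaving out single arrays gave -0.0695 to 0.0733 for Acaca, -0.0640 to 0.0502 for Cd36, -0.1784 to 0.0088 for Cidea, -0.2381 to 0.0071 for Cidec, -0.2419 to 0.0377 for Cox8b, -0.0507 to 0.1211 for Dgat2 and -0.0265 to 0.0294 for Fabp4. It gave -0.0591 to 0.0637 for Gpam, -0.2345 to 0.0927 for Gpd1, -0.2095 to 0.3627 for Lep, -0.0332 to 0.0738 for Lpin1, -0.1043 to 0.0236 for Pnpla2, -0.0059 to 0.0715 for Ppargc1a, -0.1176 to 0.0057 for Prdm16 and -0.2891 to 0.2022 for Thrsp. The cause was not tested.

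Over single arrays left out, 41 to 89 genes passed in all (68 with every array; 41 without control 1, 43 without control 2, 45 without control 3). The median of the set was -0.1542 to -0.0240, and 2 to 9 of its genes had groups without overlap, since fewer arrays separate more easily. Of the 30 these were 4 without caNrf2 1 (against 32.1% of all genes), 8 without caNrf2 2 (27.7% of all genes), 4 without control 1 (20.7% of all genes) and 9 without control 2 (20.4% of all genes). Of the other fat storage genes 2 passed, and 1, Me1, under further quantile normalisation, the mean of all probe sets, median centring, the replicate block and each array left out. With the replicate block 61 genes passed in all, 0 of the set. The labels do not say that equal numbers pair animals. Arrays numbered 1, 2 and 3 correlated at -0.195, -0.032 and 0.036 in their deviations from the group means. Arrays of unequal number correlated at -0.164 to 0.189. Such correlations cannot show whether animals were paired.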
